A study of Mus musculus with 2 samples.

Results

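Leukocytes leave the blood through a sequence of contacts with endothelium, the cell layer that lines vessels. In high endothelial venules, the postcapillary venules of lymphoid tissue, sulphated and fucosylated sugars on sialomucins tether passing lymphocytes. In other vessels, E-selectin and P-selectin slow leukocytes, and the immunoglobulin-family ligands ICAM-1 and VCAM-1 hold them through integrins. The 10 genes described here, of 31053 counted, were chosen by symbol for these roles, with earlier results of these data known. Glycam1, Cd34 and Madcam1 encode carriers of such sugars, and the Madcam1 product also binds the integrin α4β7. Fut7 encodes the fucosyltransferase and Chst4 a sulphotransferase that complete them. Sele and Selp encode the E- and P-selectins, Icam1 and Vcam1 the integrin ligands, and Ackr1 an atypical receptor that binds chemokines on venular endothelium.

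The genes were counted cell by cell in mammary glands of tamoxifen-treated C57BL/6 mice, in 1 library of miR-200c/141-flox/flox mice (Ctrl) and 1 library of K8-CreERT2;miR-200c/141-flox/flox mice (cKO). Both groups thus carried the floxed microRNA alleles, and the Cre of the cKO mice is driven by a promoter of keratin 8, a keratin of luminal epithelium. Tamoxifen was given at 8 to 10 weeks, the glands were harvested after another 4 weeks and their cells sorted by FACS to enrich mammary cells. Another label gives an age of 8 weeks, and none gives the number of mice in a library. With 1 library per group no difference could be tested, and every interval is a 95% interval for counting error alone.

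After filtering, 3407 Ctrl and 5435 cKO cells remained, with medians of 19843 and 13917 unique molecular identifiers (UMIs) a cell, and 6 barcodes occurred in both libraries. Cells were assigned from marker lists. Endothelial cells numbered 110 in Ctrl and 515 in cKO. Those whose mean over blood vessel markers was at least that over lymphatic markers were split at 2000 Glycam1 UMIs per 1000000 UMIs into Glycam1-high cells (45 in Ctrl, 305 in cKO) and other blood endothelial cells (55 and 109), and lymphatic cells with a Lyve1 UMI numbered 6 and 86. Lymphatic cells without a Lyve1 UMI, 4 and 15, were kept apart. Glycam1-high cells had medians of 31082 and 26494 UMIs, other blood endothelial cells 12012 and 11436. All 8 endothelial markers were detected in both classes, summing to 2291 and 2443 UMIs per 1000000 (written as CPM) in Glycam1-high cells and 3783 and 3591 CPM in other blood cells. Krt8 stood at 19.9 and 26.4 CPM in Glycam1-high cells, against 4837 and 4194 CPM in luminal cells.

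The 10 genes lie on 7 chromosomes of GRCm38 and are all annotated as protein coding. Sele (chromosome 1, 164048234 to 164057677, plus strand) and Selp (164115264 to 164150026, plus strand) start 67030 bases apart. Ackr1 and Cd34 are on the same chromosome, at 173331886 to 173333750 on the minus strand and 194938819 to 194961279 on the plus strand. Glycam1 is on chromosome 15 (103562759 to 103565081, minus strand), Fut7 on chromosome 2 (25423267 to 25426374, plus strand) and Chst4 on chromosome 8 (110029153 to 110039740, minus strand). Madcam1 is on chromosome 10 (79664559 to 79668537, plus strand), Icam1 on chromosome 9 (21015985 to 21028817, plus strand) and Vcam1 on chromosome 3 (116109949 to 116129688, minus strand).

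Promoter windows of 300 bases, 250 before and 50 after the start, were matched in RefSeq (GRCm38.p6) for 9 of the 10 genes, Vcam1 being the one not matched. The 100 bases before the start are shown for 1 gene of each pattern described below, a sialomucin found in 1 endothelial class (Glycam1), an inducible selectin of other vessels (Sele) and the sparsely detected Madcam1. They are chr15:103565082-103565181 (minus strand), chr1:164048134-164048233 and chr10:79664459-79664558 (both plus strand), written 5′ to 3′ with matches to TATAAA or to the kappaB decamer consensus in capitals.
Glycam1: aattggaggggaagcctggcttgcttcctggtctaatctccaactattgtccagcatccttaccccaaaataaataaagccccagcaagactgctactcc
Sele: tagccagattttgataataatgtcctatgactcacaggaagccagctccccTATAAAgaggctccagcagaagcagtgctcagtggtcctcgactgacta
Madcam1: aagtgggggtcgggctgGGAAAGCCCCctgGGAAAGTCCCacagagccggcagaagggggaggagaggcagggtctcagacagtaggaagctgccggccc

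Both strands were searched for 4 motifs. The kappaB consensus, the site of NF-kappaB factors, matched 2 times in the Madcam1 window, starting 83 and 70 bases before the start on the opposite strand and without overlap, and in none of the other windows of these genes, against 5.81% of 32851 windows of all genes. TATAAA matched 49 bases before the start of Sele and 14 bases into the transcribed part of the Icam1 window, against 13.6% of all windows. AGGTCA matched in Glycam1, Selp and Ackr1 (16.3% of all windows) and GGAAGT in Glycam1, Fut7 and Selp (23.8%). These matches describe letters and not bound sites.

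Glycam1, Fut7 and Chst4 were the genes found almost only in the Glycam1-high class. Glycam1 defined that class, so its level is a description. It stood at 201915 (Ctrl) and 151379 CPM (cKO), which was 20.2% and 15.1% of all UMIs of these cells. They held 95.7% and 93.4% of all Glycam1 UMIs of the libraries. The threshold fell in a gap. The lowest Glycam1-high cell stood at 8412 (Ctrl) and 2564 CPM (cKO), and the highest other blood endothelial cell at 1689 and 1259 CPM. Of the cells of these 2 blood classes, only 2 in Ctrl and 15 in cKO lay between 500 and 10000 CPM. Lymphatic cells are not in that count, and 1 of them in Ctrl and 5 in cKO lay past 2000 CPM.

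**Figure D1:**
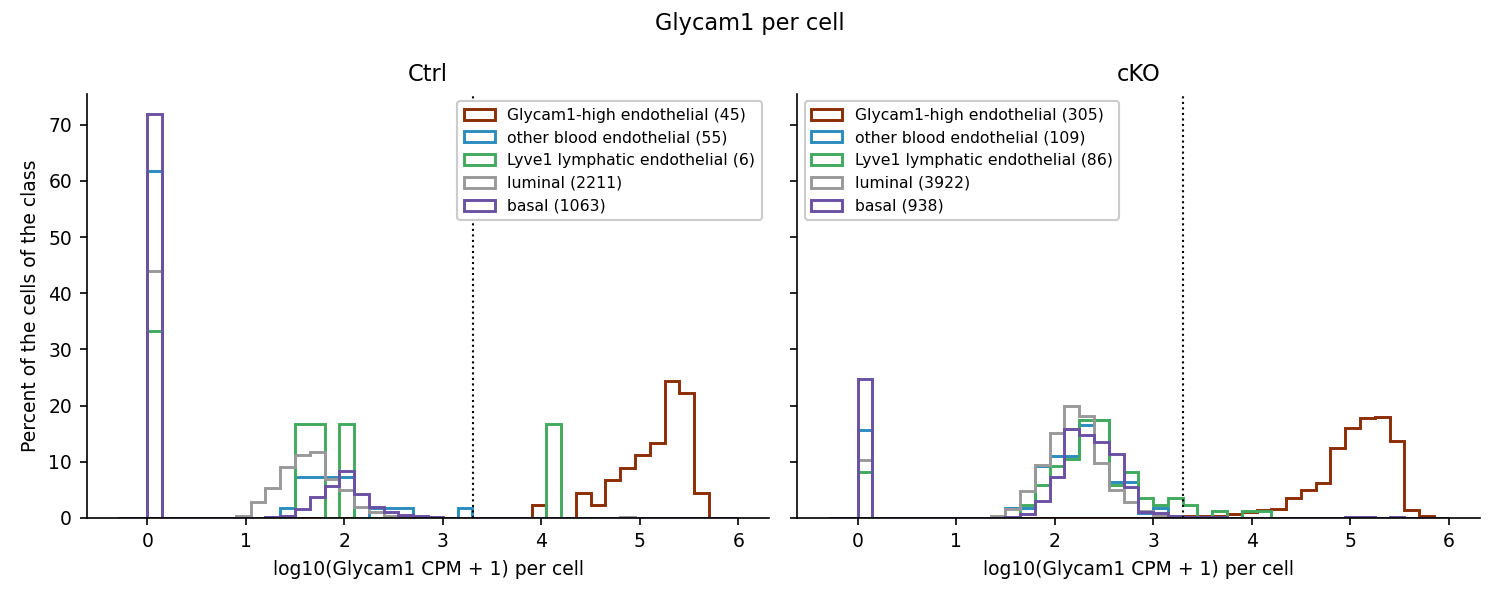
Glycam1 level per cell, as log10(CPM + 1), for 5 cell classes in each library, with the height giving the percent of the cells of the class and the dotted line the threshold at 2000 CPM. Glycam1-high cells form a separate peak in both libraries, and most cells of the other classes lie at 0 or between 1 and 3 on this axis, fewer of them at 0 in cKO.

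Fut7 stood at 188 CPM in Glycam1-high cells of Ctrl (95% interval 167 to 211) and 258 CPM in those of cKO (247 to 268). In other blood endothelial cells it stood at 6.92 CPM in Ctrl, all 6 UMIs in 1 cell, and 0.649 CPM in cKO, from 1 UMI. No Fut7 UMI was found in the 86 Lyve1 lymphatic cells of cKO. Chst4 stood at 164 CPM (144 to 185) and 159 CPM in Glycam1-high cells, with 0 UMIs in other blood cells of Ctrl, 1 UMI in those of cKO and 0 in the lymphatic cells. Both genes were thus found in the same class in both libraries, with levels elsewhere at the edge of detection. A Fut7 UMI was present in 88.9% and 79.7% of Glycam1-high cells and a Chst4 UMI in 84.4% and 87.9%. After thinning every cell to 1000 UMIs, a Fut7 UMI remained in 22.2% (11.2 to 37.1) and 18.1% (13.9 to 22.9) of them, with 1 cKO cell too shallow to keep, against 0 of 1057 basal cells in Ctrl, which allows up to 0.284%, and 0.321% of those in cKO.

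Summed over cells, Selp, Sele, Icam1 and Vcam1 were lower in Glycam1-high than in other blood endothelial cells. Cd34 and Ackr1 were found in both classes, Ackr1 in few of the other blood cells. Selp stood at 588 CPM in Glycam1-high and 1671 CPM in other blood cells of Ctrl, and at 668 and 1333 CPM in cKO. Sele stood at 87.9 and 370 CPM in Ctrl and 117 and 499 CPM in cKO. The sums of both selectins were thus higher in the other blood class in each library. For Selp that sum came from few cells, since the median other blood cell held no Selp UMI, against medians of 322 and 491 CPM in Glycam1-high cells. A Selp UMI was present in 38.2% and 33.9% of other blood cells and in 95.6% and 92.1% of Glycam1-high cells, or 32.7% and 22.9% against 42.2% and 38.8% after thinning to 1000 UMIs. The other blood cells without an Ackr1 UMI, 41 of 55 and 90 of 109, held Selp at 183 and 353 CPM, below the level of Glycam1-high cells. They were also shallower, with medians of 10858 and 10765.5 UMIs against 21272 and 13779 in other blood cells with an Ackr1 UMI. Icam1 stood at 399 and 2032 CPM in Ctrl and 224 and 1778 CPM in cKO. Vcam1 stood at 460 and 1685 CPM in Ctrl and 312 and 2329 CPM in cKO. For these 2 integrin ligands the cKO library held the wider gap. Cd34 stood at 338 and 266 CPM in Ctrl and 371 and 233 CPM in cKO. Ackr1 stood at 680 and 596 CPM in Ctrl and 920 and 380 CPM in cKO. Before thinning, an Ackr1 UMI was present in 41 of 45 and 291 of 305 Glycam1-high cells, and in 14 of 55 and 19 of 109 other blood cells. A Cd34 UMI was present in 41 of 55 and 77 of 109 other blood cells.

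**Figure D2:**
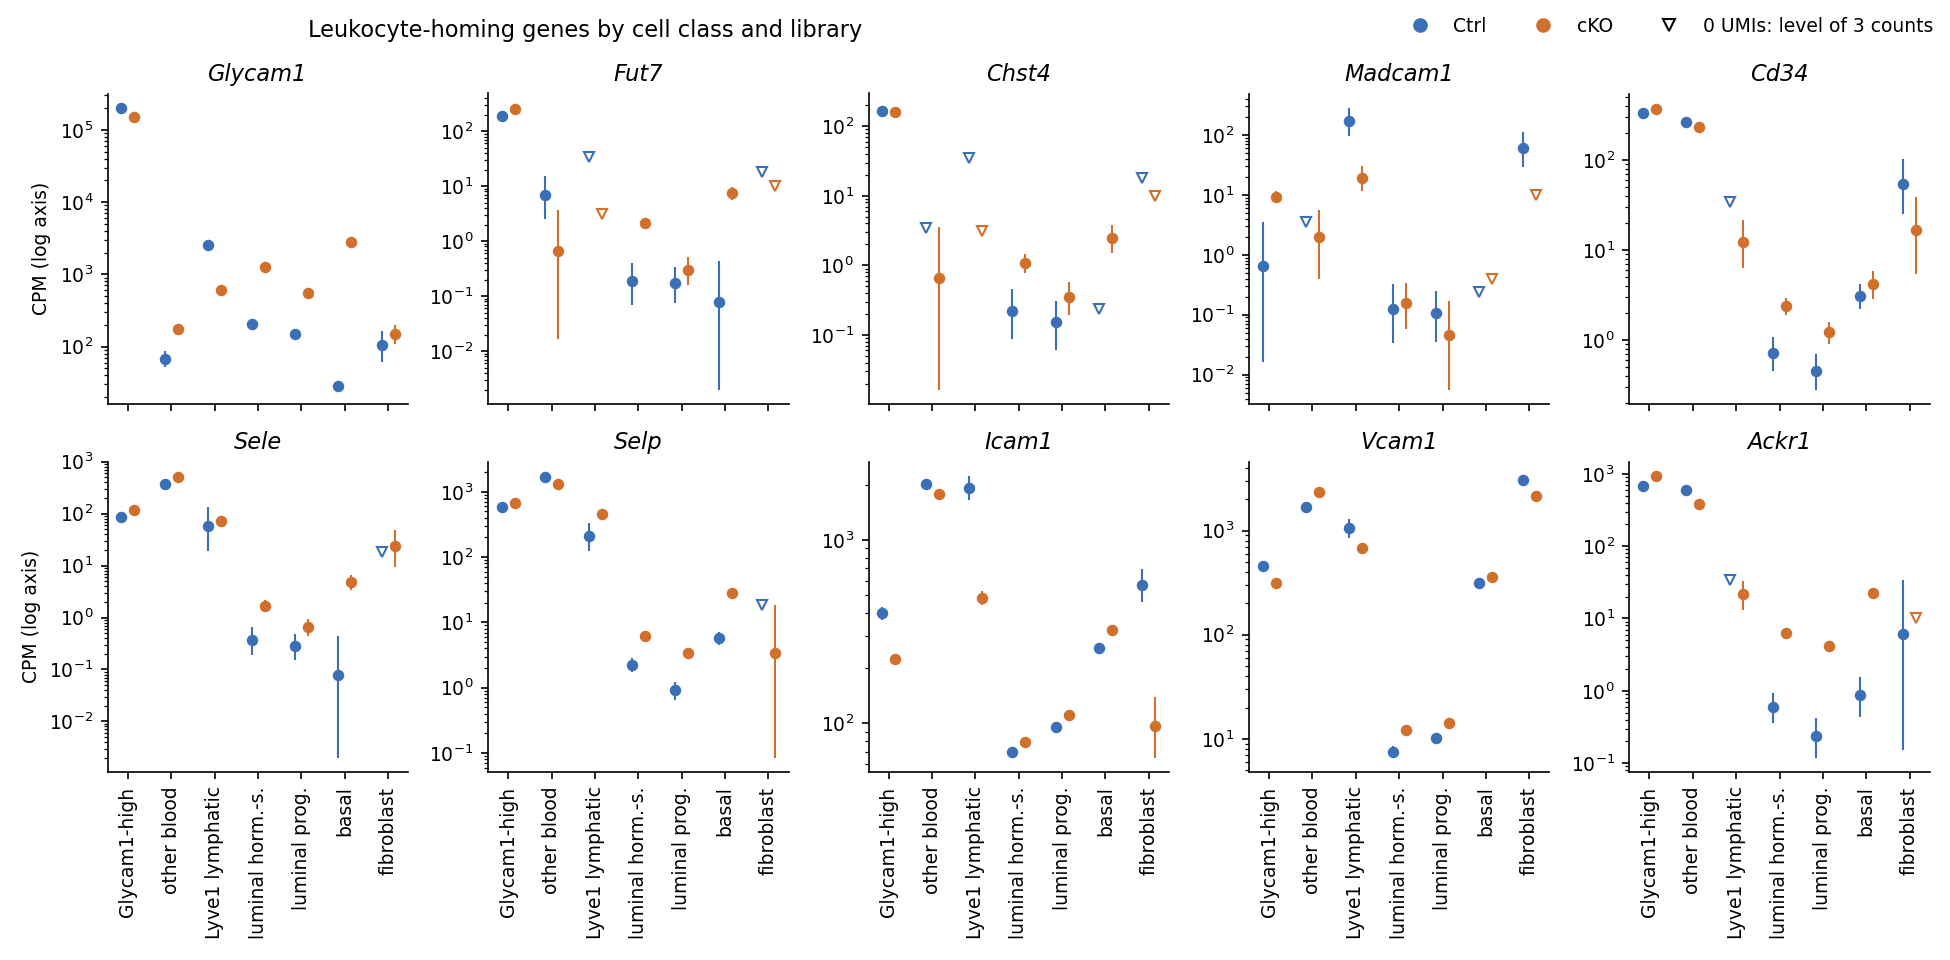
CPM of the 10 genes on log axes in 7 cell classes, Ctrl in blue and cKO in orange, with bars for 95% Poisson intervals and open triangles at the level of 3 counts where no UMI was found. Fut7 and Chst4 peak in Glycam1-high cells, the selectins and Icam1 in other blood endothelial cells, and Vcam1 also in fibroblasts at 3079 and 2127 CPM.

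A difference was called where the ratio of 2 summed classes was at least 2-fold with at least 20 UMIs over both. Of the 9 genes with that many UMIs in Ctrl, 3 were called higher in Glycam1-high cells and 4 lower, where 5.94% of 6836 genes were called higher and 24.0% lower. In cKO, 5 of 10 were called higher and 3 lower, where 8.84% of 10085 genes were called higher and 20.7% lower. The median log2 ratio of the genes with enough UMIs was 0.19 in Ctrl and 0.97 in cKO, beside -0.43 and -0.28 over all genes. Glycam1 itself, 1 of the genes counted as higher, was fixed there by the definition of the class.

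Fut7 was 27.2-fold higher in Glycam1-high cells of Ctrl (12.3 to 74.6), and in cKO its ratio of 397 rests on 1 UMI in the other class (71.3 to 15704). Chst4 was 47.3-fold higher in Ctrl against a floor of 3 counts in place of 0, with a 95% lower limit of 38.2. Its ratio in cKO was 245 (43.9 to 9672). Icam1 was 5.10-fold lower in Ctrl (4.65 to 5.59) and 7.95-fold lower in cKO. Vcam1 was 3.66-fold lower (3.34 to 4.01) and 7.47-fold lower (7.11 to 7.86). These ligands thus went the opposite way to the enzymes in both libraries. Sele was 4.21-fold lower (3.44 to 5.19) and 4.29-fold lower (3.90 to 4.71). Selp was 2.84-fold lower in Ctrl (2.61 to 3.09), while its ratio in cKO, 0.501 (0.476 to 0.527), stood just inside 2-fold. Cd34 was not called in either library, with log2 ratios of 0.34 and 0.67, and reached 1.08 in cKO under trimmed-mean scaling. Ackr1 was called only in cKO, at a log2 ratio of 1.28 against 0.19 in Ctrl, and that call was lost with clusters in place of the threshold (0.82) and for Glycam1-high cells of cluster 0, a subset described below (0.06). Since Glycam1 took so large a share of the UMIs, ratios were also taken over totals without it, which raised each of them and changed none of these calls. That of Cd34 became 0.67 in Ctrl and 0.90 in cKO, that of Ackr1 in Ctrl 0.52, and that of Selp in cKO -0.76.

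**Figure D3:**
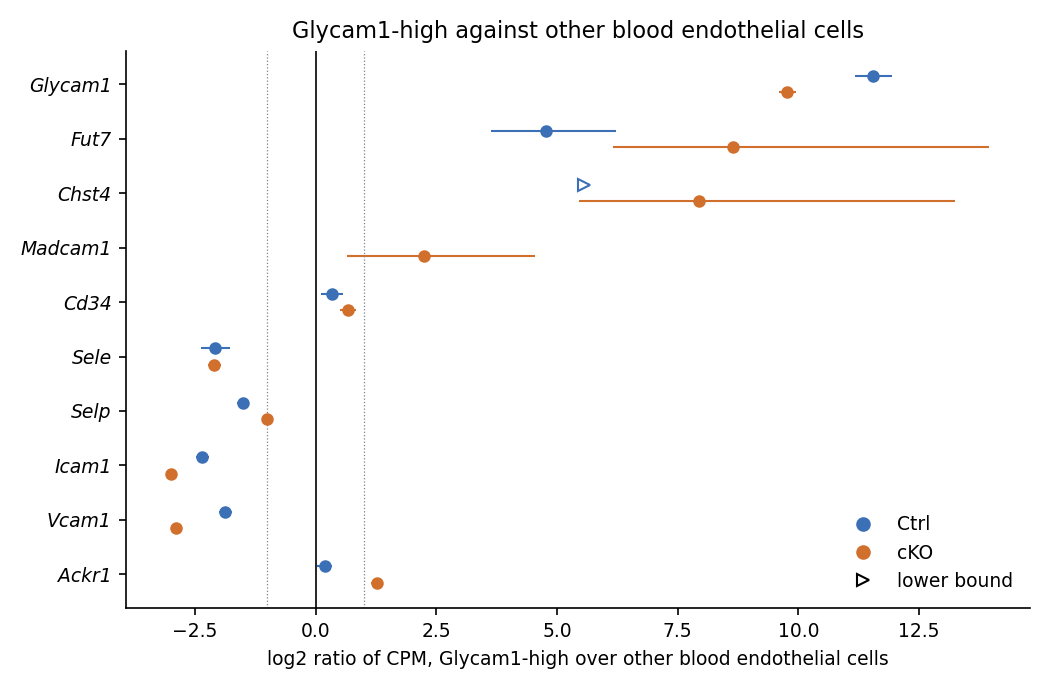
Log2 ratio of CPM between Glycam1-high and other blood endothelial cells for each gene in Ctrl (blue) and cKO (orange), with 95% intervals and dotted lines at 2-fold. The triangle, marked as a lower bound, is a ratio against a floor of 3 counts in place of 0. Fut7 and Chst4 lie far to the right of 0 in both libraries, and Sele, Selp, Icam1 and Vcam1 to the left.

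Markers that moved with this difference were counted beside it. Of 10 immediate early and heat shock genes, which respond to cell stress and dissociation, 10 in Ctrl and 8 in cKO were called lower in Glycam1-high cells, and their sum was 2991 against 10195 CPM in Ctrl and 3868 against 10486 CPM in cKO. Hspa1a stood at 367 and 2096 CPM in Ctrl and 58.2 and 1348 CPM in cKO, and Fosb, Egr1 and Hspa1b were lower in both libraries as well. The sum of 6 pan-leukocyte markers was 35.3 against 4.61 CPM in Ctrl and 47.9 against 0.649 CPM in cKO, and that of 5 T and B cell markers 22.4 against 1.15 CPM and 35.9 against 1.95 CPM. All 6 leukocyte markers were detected in Glycam1-high cells of both libraries, while Cd3e, which defines T cells, was at 0 in those of Ctrl. The part of these markers in the differences of the 10 genes was not tested.

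Other genes of the same pathways were taken from fixed lists, chosen with earlier results of these data known. Their counts stand beside the shares over all genes given above, 5.94% higher and 24.0% lower in Ctrl and 8.84% and 20.7% in cKO. Of 12 genes that build sialyl Lewis x and its sulphated forms, 3 of 9 with enough UMIs were called higher in Glycam1-high cells of Ctrl and 1 lower, and 4 of 11 and 1 in cKO. Gcnt1, a core-2 branching enzyme, stood at 77.6 CPM in Glycam1-high and 0 in other blood cells of Ctrl and at 46.1 and 2.59 CPM in cKO. Chst2, another sulphotransferase of these sugars, stood at 378 and 70.4 CPM in Ctrl and 204 and 38.3 CPM in cKO. St3gal6, a sialyltransferase, was called higher in Ctrl alone, at a log2 ratio of 1.36 against 0.80 in cKO. B4galt1, a galactosyltransferase, was lower in both, at -1.32 and -1.22. Over totals without Glycam1, St3gal6 reached 1.03 in cKO and B4galt1 fell short of 2-fold in both libraries, at -0.98 in cKO. Among 5 other sialomucins, Podxl, which encodes podocalyxin, was called lower in both libraries (3.85 against 92.3 CPM and 3.14 against 86.3 CPM), Parm1 higher in cKO alone (log2 ratio 1.08), and Emcn and Cd164 were called in neither.

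Of 11 other adhesion genes, all 11 with enough UMIs, 3 were called higher and 7 lower in Ctrl, and 1 and 4 in cKO. Their median log2 ratios were -1.12 and -0.32, beside -0.43 and -0.28 over all genes. Jam2 and Esam, which encode junctional adhesion proteins, were lower in both, Jam2 at 28.9 against 294 CPM in Ctrl and 44.7 against 257 CPM in cKO. Alcam, which encodes a ligand of CD6, was higher in both at log2 ratios of 1.04 and 1.72, and Nectin2 in Ctrl alone at 1.84, with 0.98 in cKO and 1.22 there over totals without Glycam1. Of 11 chemokine genes and chemokine receptors, 4 of 7 were called higher and 3 lower in Ctrl, and 5 of 10 and 3 in cKO. Ccl21a, a ligand of the homing receptor CCR7, stood at 16950.1 CPM in Glycam1-high and 5.77 CPM in other blood cells of Ctrl and at 13046 and 4.54 CPM in cKO. Cxcl9 was higher in both, while Cxcl12 and its scavenger Ackr3 were lower in both, Cxcl12 at 3.85 against 317 CPM in Ctrl and 3.93 against 450 CPM in cKO. Of 12 NF-kappaB pathway genes, 1 of 11 was called higher and 4 lower in Ctrl and 0 and 4 of 12 in cKO, with Rela, Nfkb1 and Relb lower in both libraries. The median log2 ratios of this list were -0.37 and -0.46, and the shares called lower are read against those of all genes. Rela stood at 34.0 and 114 CPM in Ctrl and 39.7 and 140.1 CPM in cKO. Over totals without Glycam1, Relb in Ctrl (-0.75) and Nfkb1 in cKO (-0.96) fell short of 2-fold. Of 10 leukocyte-side receptors, 1 in Ctrl and 2 in cKO had enough UMIs. Itgb1, an integrin subunit, was called lower in Ctrl alone, at a log2 ratio of -1.17 against -0.88 in cKO, and at -0.85 in Ctrl over totals without Glycam1.

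The endothelial cells were clustered without the 10 genes, so that the clusters could describe them. All 45 Glycam1-high cells of Ctrl and 304 of 305 of cKO fell in the 4 clusters where that class was the majority. Clusters 1, 5 and 7 held other blood cells alone, and clusters 2 and 3 mostly lymphatic cells. Clusters 2, 4, 6 and 8 were nearly all from cKO, with 1 of 67, 5 of 84, 7 of 104 and 2 of 23 cells from Ctrl, and may stand for that library.

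The other blood class was a mixture in which Selp, Sele and Ackr1 were high in one cluster and Vcam1 in another. Cluster 7, with 12 cells in each library, held Selp at 4956 CPM (4692 to 5231) for Ctrl and 10114 CPM (9599 to 10649) for cKO. In cluster 1 Selp stood at 228 and 320 CPM, and in cluster 5 at 58.3 and 347 CPM. Cluster 7 was thus the high one for Selp in both libraries. Sele followed it, at 763 and 3565 CPM in cluster 7, 139 and 94.9 CPM in cluster 1, and 72.8 and 148 CPM in cluster 5. Ackr1 stood at 1891 and 3830 CPM in cluster 7, 24.9 and 30.5 CPM in cluster 1, and had no UMI in the 32 cells of cluster 5. The genes that led cluster 7 by fold were Nt5e, Cxcl2, Lbp, Cxcl1, Il6, Aqp1 and Vwf, and Vwf, of the list of venous markers, stood there at 496 and 531 CPM. Nr2f2, of the same list, stood at 86.5 and 48.9 CPM there, 60.5 and 41.8 CPM in cluster 1 and 110 and 119 CPM in cluster 0. Aplnr, also of that list, stood at 48.9 CPM in cluster 7 of Ctrl and had 0 UMIs in that of cKO.

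Vcam1 was highest in cluster 5, at 4433 CPM (4150 to 4730) for Ctrl and 6435 CPM (6178 to 6701) for cKO, against 1591 and 2488 CPM in cluster 7 and 182 and 481 CPM in cluster 1. Cluster 5 was led by Gkn3, Gal and Col5a2 and held Gja4, of the list of arterial markers, at 413 and 746 CPM. Sox17, of the same list, stood at 461 and 246 CPM there and at 306 and 465 CPM in cluster 1. Icam1 was spread more evenly than Vcam1, Selp, Sele and Ackr1, at 1652 and 1236 CPM in cluster 1, 2078 and 3290 CPM in cluster 5, and 2734 and 3502 CPM in cluster 7. Cluster 1, led by Cryab, Rbp7 and Cxcl12, held Gpihbp1, of the list of capillary markers, at 392 and 365 CPM. Within the class, Selp UMIs were concentrated, with 50% of them in 5 of 55 cells in Ctrl and 6 of 109 in cKO, while 50% of Icam1 UMIs took 10 and 14 cells. These clusters are small, and their levels describe the cells counted here.

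**Figure D4:**
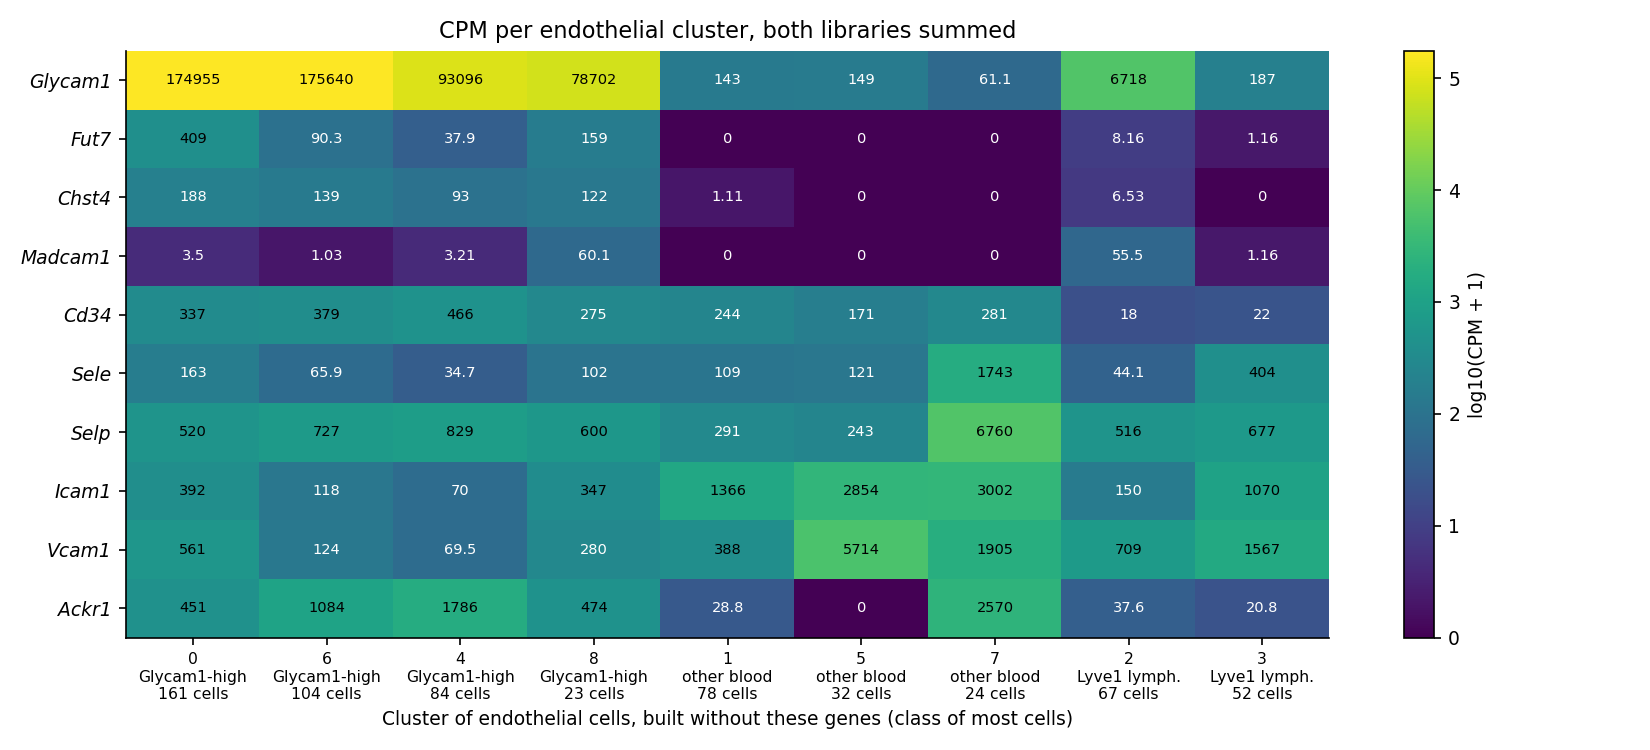
CPM of the 10 genes in 9 clusters of endothelial cells built without them, both libraries summed, with colour for log10(CPM + 1) and the class of most cells under each cluster number. Selp, Sele and Ackr1 stand out in cluster 7 of the other blood cells and Vcam1 in cluster 5, while Ackr1 differs among the Glycam1-high clusters from 451 CPM in cluster 0 to 1786 CPM in cluster 4.

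Glycam1-high cells also differed among themselves. In cKO they made up 123 of 123 cells of cluster 0, 97 of 97 of cluster 6, 68 of 79 of cluster 4 and 16 of 21 of cluster 8, and the levels given here are over all cells of a cluster. Fut7 stood at 480 CPM in cluster 0, 91.1 CPM in cluster 6, 39.4 CPM in cluster 4 and 168 CPM in cluster 8. Ackr1 ran the other way, at 396, 1094 and 1803 CPM in clusters 0, 6 and 4, and 500.1 CPM in cluster 8. Vcam1 stood at 585, 116 and 71.5 CPM and Icam1 at 382, 108 and 66.0 CPM in clusters 0, 6 and 4, with 295 and 317 CPM in cluster 8. Fut7, Vcam1 and Icam1 were thus higher in clusters 0 and 8 of cKO than in clusters 6 and 4, and Ackr1 lower. Chst4 and Cd34 varied less, from 95.4 to 194 CPM and from 280 to 460 CPM over the 4 clusters. Cluster 0 was led by Cd79a, Hamp and Dock8 and also by Cd52 and Igkc, so that B lymphocyte genes moved with it, and their part was not tested. Cluster 4 was led by the interferon-induced genes Ifit3 and Ifit3b, and cluster 8 by the cell cycle genes Hist1h1b and Hist1h2ap.

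In Lyve1 lymphatic cells of cKO, 6 of the 8 genes with enough UMIs were called lower than in other blood endothelial cells and 2 higher, where 10.9% of 7806 genes were called lower and 13.9% higher. Cd34 stood at 12.3 CPM against 233 CPM, 19.0-fold lower (10.8 to 37.1), and Ackr1 at 21.5 against 380 CPM, 17.7-fold lower (11.5 to 28.8). Sele stood at 72.6 against 499 CPM, 6.87-fold lower (5.39 to 8.89). Icam1 (483 CPM), Vcam1 (685 CPM) and Selp (449 CPM) were 3.68-fold, 3.40-fold and 2.97-fold lower. The lymphatic cells of cKO were not alike. Of the 86, 65 fell in cluster 2 and 18 in cluster 3, which also held other blood cells and lymphatic cells without a Lyve1 UMI. Over all cKO cells of clusters 2 and 3, Icam1 stood at 107 and 906 CPM, Vcam1 at 671 and 1582 CPM and Selp at 529 and 745 CPM. The 6 lymphatic cells of Ctrl were too few for a ratio, and held Icam1 at 1925 CPM (1644 to 2240.2), Vcam1 at 1049 CPM (845 to 1288) and Selp at 207 CPM (123 to 328). Icam1 was thus as high in those few cells as in the other blood cells of Ctrl. Of these 6 cells 4 fell in cluster 3, so the lymphatic classes of the 2 libraries differed in make-up.

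The level and the share of cells differed for Selp. Its sum in lymphatic cells of cKO was 2.97-fold lower than in other blood cells, yet 77.9% of 86 lymphatic cells held a Selp UMI against 33.9% of 109 other blood cells. After thinning to 1000 UMIs the shares were 32.6% (22.8 to 43.5) and 22.9% (15.4 to 32.0), whose intervals overlap, against 0.534% of basal cells. Glycam1 and Madcam1 were the 2 genes called higher in lymphatic cells. For Glycam1 the classes were not limited alike, since other blood cells lay below 2000 CPM by definition and lymphatic cells had no such limit. Of the Glycam1 UMIs in the lymphatic cells, 41.6% came from 1 cell and 5 cells lay past 2000 CPM. Without those 5 cells Glycam1 stood at 243 CPM and its log2 ratio fell from 1.81 to 0.48, no longer 2-fold.

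Madcam1 was sparse everywhere. In Glycam1-high cells it had 1 UMI in Ctrl and 82 UMIs in cKO, in 11 of 305 cells, with 50% of them in 1 cell. In Lyve1 lymphatic cells of cKO it had 19 UMIs in 10 of 86 cells (19.4 CPM, 11.7 to 30.4), none of the 10 holding more than 15.8% of them. In Ctrl it had 15 UMIs in 1 of 6 lymphatic cells and 10 UMIs in 2 of 9 fibroblasts. In other blood cells it had 0 and 3 UMIs. The call in cKO lymphatic cells fell under the minimum of UMIs without the 5 cells past the Glycam1 threshold, where 12 UMIs remained.

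Against the lymphatic cells of cKO, Glycam1-high cells had 5 genes called higher and 3 lower, where 8.87% of 9927 genes were called higher and 26.1% lower. Glycam1, 1 of the 5, defined the Glycam1-high class, so its call is a description. Fut7 and Chst4 were at least 84.0-fold and 51.7-fold higher against a floor of 3 counts, Ackr1 42.8-fold (28.0 to 69.2) and Cd34 30.2-fold (17.3 to 58.5). The lower calls of Icam1, Vcam1 and Madcam1, at log2 ratios of -1.11, -1.13 and -1.08, were all lost over totals without Glycam1, at -0.87, -0.90 and -0.84.

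Between the libraries, Glycam1-high cells of cKO had 1 gene called higher and 0 lower of 10, where 12.0% of 9696 genes were called higher and 1.85% lower. That gene was Madcam1, at 1 against 82 UMIs. Icam1 fell short of 2-fold at a log2 ratio of -0.83 (-0.96 to -0.70), Vcam1 at -0.56 (-0.68 to -0.44), Fut7 at 0.46 (0.28 to 0.64), Ackr1 at 0.44 (0.34 to 0.53), Sele at 0.41 and Selp at 0.18. Chst4 was at -0.04 (-0.24 to 0.15) and Cd34 at 0.13. The median over all genes was 0.21. In other blood cells, 1 of 7 genes was called higher and 0 lower, where 5.92% of 7399 genes were called higher and 2.93% lower. It was Glycam1, at 68.1 and 174 CPM. The level of Glycam1 in epithelial cells, given below, was also higher in cKO, and its part in this ratio was not tested. Ackr1 was at -0.65 (-0.82 to -0.48), Vcam1 at 0.47 (0.38 to 0.56), Sele at 0.43 (0.24 to 0.62), Selp at -0.33 (-0.42 to -0.23), Icam1 at -0.19 and Cd34 at -0.19.

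The clusters were unequally represented in the Glycam1-high classes that were compared. Cluster 0 held 82.2% of the 45 cells in Ctrl (67.9 to 92.0) and 40.3% of the 305 in cKO (34.8 to 46.1). Compared within cluster 0, a choice made after the values were seen, the log2 ratio of Icam1 was -0.15 (-0.29 to -0.01), that of Vcam1 0.23 (0.11 to 0.36) and that of Ackr1 -0.60 (-0.73 to -0.48). Vcam1 and Ackr1 thus had the other sign within this cluster than over the class. Fut7 and Sele were called higher there, at 207 and 480 CPM with a log2 ratio of 1.21 and at 87.3 and 191 CPM with 1.13 (0.84 to 1.42), where 6.86% of 8119 genes were called higher and 1.72% lower. Madcam1 was under the minimum of UMIs in this cluster. The other Glycam1-high clusters held at most 7 cells in Ctrl and were not compared.

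**Figure D5:**
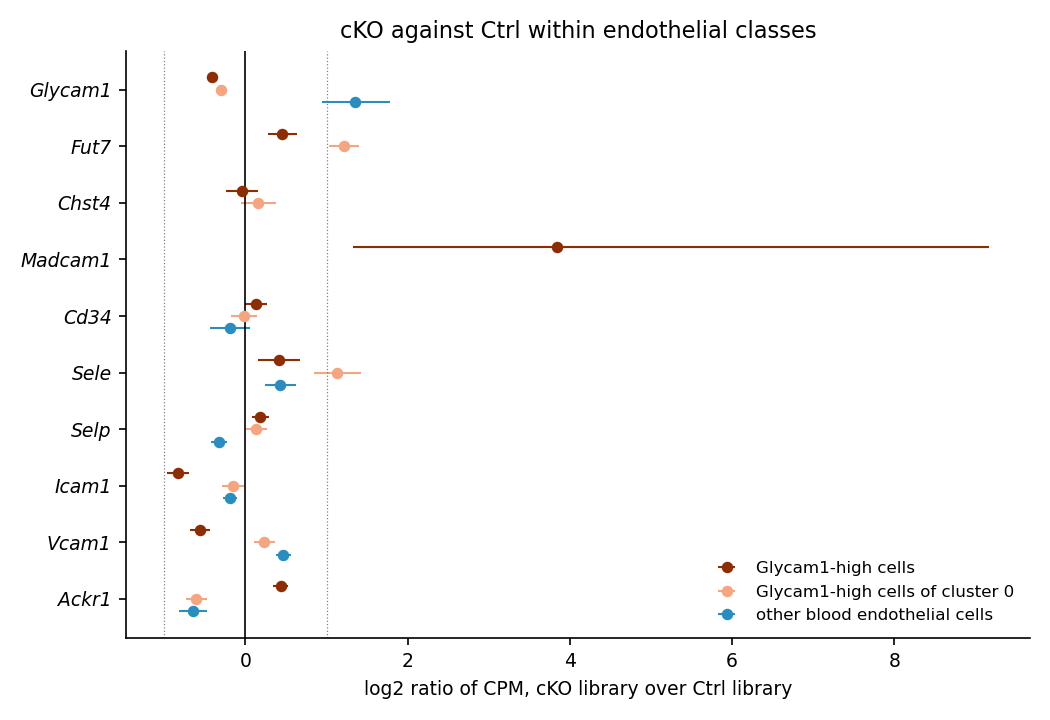
Log2 ratio of CPM in cKO over Ctrl, with 95% intervals, for all Glycam1-high cells (dark), those of cluster 0 (light) and other blood endothelial cells (blue), and dotted lines at 2-fold. Vcam1 and Ackr1 change sign between the whole Glycam1-high class and cluster 0, and Madcam1, resting on 1 UMI in Ctrl, has the widest interval.

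Epithelial cells can give the level at which RNA free in the suspension enters droplets, for those genes that epithelium does not express. Whether Glycam1 is one of those genes in mammary epithelium was not tested, so its levels here are those counted in epithelial barcodes. Among barcodes below 2000 CPM of Glycam1, Glycam1 stood at 27.4 CPM in luminal and 28.2 CPM in basal cells of Ctrl, and at 149 and 190 CPM in those of cKO. Hormone-sensing and progenitor cells, the 2 luminal kinds, were alike, at 27.7 and 27.2 CPM in Ctrl and 153 and 145 CPM in cKO. Other blood endothelial cells stood above this level in Ctrl (68.1 CPM, 51.8 to 87.8), with 50% of their Glycam1 UMIs in 2 of 55 cells, and between the luminal and the basal level in cKO (174 CPM, 154 to 196). A few epithelial barcodes lay past the threshold, 2 luminal and 0 basal in Ctrl and 20 luminal and 8 basal in cKO. These held 84.0% of the Glycam1 UMIs of luminal cells in Ctrl, and 83.2% and 93.4% of those of luminal and basal cells in cKO. They set most of the class levels, which were 170 CPM in luminal cells of Ctrl and 881 and 2820 CPM in luminal and basal cells of cKO.

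The other genes were set against Glycam1. If all UMIs below the threshold came in the ratio of Glycam1-high cells, luminal cells of cKO would hold 20.5 Fut7, 12.6 Chst4 and 73.2 Ackr1 UMIs, and 13, 10 and 97 were counted. In the 20 luminal barcodes past the threshold, 81 Fut7 and 47 Chst4 UMIs were counted against 101 and 62.5 by this ratio. In basal cells of cKO below the threshold, Ackr1 exceeded the ratio, with 152 UMIs against 8.75. Sele exceeded it in both, with 66 UMIs against 9.27 in luminal and 32 against 1.11 in basal cells, and so did Selp, with 142 against 53.1 and 208 against 6.35. In basal cells of all levels 76.7% of the Selp UMIs in cKO and 94.4% in Ctrl came from 1 barcode. Of the 938 basal barcodes of cKO, 17 held an Ackr1 UMI and 3 a Sele UMI. At least 50% of these UMIs came from 2 barcodes for Ackr1 and from 1 for Sele. In luminal cells of cKO at all levels, a Sele UMI was held by 8 of 1972 hormone-sensing and 12 of 1950 progenitor barcodes. At least 50% of the Sele UMIs came from 2 and 3 of these, and of the Selp UMIs from 4 and 1 barcodes.

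Icam1 and Vcam1 were farther above this ratio in epithelium. Below the threshold, luminal cells of cKO held 7722 Icam1 UMIs against 17.8 by the ratio, and basal cells 2663 Vcam1 UMIs against 2.96. Icam1 stood at 85.2 CPM in luminal and 259 CPM in basal cells of Ctrl and at 95.8 and 322 CPM in cKO, and Vcam1 at 9.08 and 312 CPM in Ctrl and 13.2 and 355 CPM in cKO. Both were thus higher in basal than in luminal cells, Vcam1 by far the more so. After thinning to 1000 UMIs, an Icam1 UMI was present in 23.8% (21.3 to 26.5) of basal and 7.93% (6.51 to 9.56) of luminal progenitor cells of Ctrl, and a Vcam1 UMI in 20.9% (18.5 to 23.5) and 0.864% (0.432 to 1.54). Before thinning, with medians of 10322 and 30023 UMIs a cell, these were 82.6% and 63.6% for Icam1 and 66.3% and 11.7% for Vcam1.

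The order of the levels over the classes differed by gene. In cKO, Icam1 ran from other blood (1778 CPM) through lymphatic (483 CPM), basal (322 CPM) and Glycam1-high cells (224 CPM) to luminal cells (95.8 CPM), each step beyond its counting interval, with fibroblasts (97.1 CPM, 65.1 to 140) not separable from luminal cells. Vcam1 ran from other blood (2329 CPM) and fibroblasts (2127 CPM), whose neighbouring intervals overlap, through lymphatic (685 CPM), basal (355 CPM) and Glycam1-high cells (312 CPM) to luminal cells. For both genes the step from basal to Glycam1-high cells was reversed in Ctrl. There Icam1 stood at 259 CPM in basal and 399 CPM in Glycam1-high cells, and Vcam1 at 312 and 460 CPM. All these totals include Glycam1, which was 15.1% of the UMIs of Glycam1-high cells in cKO. Those cells were also split at their median Glycam1 level, over totals without Glycam1. The upper and lower parts held Vcam1 at 421 and 312 CPM, on either side of the basal level. The Vcam1 step in cKO was thus not separable from this scaling. Icam1 stood at 229 and 299 CPM in these parts, both below the basal level. Cd34 ran from Glycam1-high (371 CPM) and other blood cells (233 CPM) to fibroblasts (16.8 CPM) and lymphatic cells (12.3 CPM), the last pair within their intervals.

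Likeness was described as Pearson's r of log2(CPM + 1) over 12 points, the classes of at least 20 cells in each library. The points share libraries, depth and free RNA, so r is a description of these sums. Glycam1, Fut7 and Chst4 were alike (0.89 to 0.95), as were Sele and Selp (0.93) and Selp and Ackr1 (0.94), while the r of Glycam1 and Icam1 was -0.04. The genes most like Glycam1 were Chst4, Ptgds, which encodes a prostaglandin D synthase, and Ubd, which encodes a ubiquitin-like protein (0.94 to 0.95). Those most like Fut7 were Necab2, Lhx2 and Chst4, and those most like Chst4 were Bpifb5, Dab1 and Ptgds. Sele was most like Pecam1, Cyyr1 and Lrch1, Selp like Robo4, Adgrl4 and Myct1, and Ackr1 like Abcg2, Hoxb5 and Lpar6. Cd34 was most like Ripk3, Pdzd2 and St8sia4, Vcam1 like Tns1, Ppic and Akap2, and Icam1 like Mef2a, Kmt2e and Bmp6. Madcam1 was most like the interferon-induced genes Mx1, Ifit1bl1 and Batf2 (0.98 to 0.99), an order that rests on its few UMIs.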

How the data were processed

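The libraries were made with 10x Chromium 3′ reagents of the v2 chemistry, as the labels' protocols state. What the authors deposited are counts, whole numbers of UMIs per gene and barcode that the authors did not normalize. The file headers record software version 3.0.0, whereas Cell Ranger 2 is named, with mm10, in the submitters' processing notes. Ctrl held 4237 barcodes with 95520633 UMIs and cKO 6257 with 103668011.

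Cells with at least 500 genes and at most 10% mitochondrial UMIs were kept, and 9 and 58 Scrublet doublets removed. These are 0.263% and 1.06% of cells, so undetected pairs remain. A cell took the lineage with the highest mean of log-scaled counts over its marker list, with at least 3 markers detected. Counts were summed per class and library into CPM with exact Poisson intervals, ratios with exact conditional binomial intervals and shares with exact Clopper-Pearson intervals, all covering counting error only. UMIs are molecules and not reads, but share a library. Shares were compared after thinning to 1000 UMIs. The cell type names are rebuilt here. Endothelial cells were clustered without the 10 genes (scanpy 1.11.5, Leiden resolution 0.5, 2000 variable genes, 20 components).

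The 10 genes, their lists and the rules were chosen with earlier results of these data known. Named beside them are the 3 genes with the highest r for each, and up to 4 genes per list farthest from 0 in the mean log2 ratio of Glycam1-high to other blood cells, with at least 50 UMIs. Genes leading clusters were the 8 with the largest fold over the other clusters and at least 100 UMIs, a rule set after values were seen. Functions were tested on simulated counts.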

Additional observations from a re-analysis of the deposited data

Results flagged for a closer look

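Between the libraries, 4 of the genes moved one way in Glycam1-high and the other way in other blood endothelial cells, with both counting intervals clear of 0. The difference between the classes was not tested. Glycam1 itself set these classes. In other blood cells of cKO it stood at 174 CPM, between luminal (149 CPM) and basal cells (190 CPM) below the threshold. The log2 ratio of cKO to Ctrl was -0.42 for Glycam1 in Glycam1-high and 1.35 in other blood cells. For Selp it was 0.18 and -0.33. For Vcam1 it was -0.56 and 0.47, and for Ackr1 0.44 and -0.65. Within cluster 0 of the Glycam1-high cells the Vcam1 ratio was 0.23 and the Ackr1 ratio -0.60, the same directions as in other blood cells, and the Glycam1 ratio was -0.30 and the Selp ratio 0.13.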

How the results depend on the processing

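Each ratio was recomputed with the Glycam1 threshold at 500 and 10000 CPM, with clusters in place of the threshold, with stricter cell filters, without cells of a second lineage, with trimmed-mean scaling and with no minimum of UMIs, and after seeing the data with totals without Glycam1, in cluster 0 alone and in lymphatic cells below the threshold. Of 489 recomputed log2 ratios, 0 reversed a called direction, 381 stayed within the main interval and 108 moved outside it. The trimmed-mean factors of Glycam1-high against other blood cells were -0.46 and -0.41 (log2) in Ctrl and cKO, which raises their ratios by as much. Selp in cKO was called lower with clusters (-1.28), stricter filters (-1.01) and in cluster 0 (-1.33), and Ackr1 lost its call with clusters (0.82) and in cluster 0 (0.06).

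With the threshold at 10000 CPM, the genes called higher in lymphatic than in other blood cells were 1, since 5 cells past 2000 CPM joined the other blood class of cKO, and Glycam1 was at 0.34. With lymphatic cells below the threshold alone it was 0, with Glycam1 at 0.48 and Madcam1 under the minimum of UMIs. In other blood cells, 2 were called higher in cKO at 10000 CPM, and 1 lower with no minimum of UMIs. In Glycam1-high cells of cluster 0, 2 were called higher. Without cells of a second, non-epithelial lineage, Glycam1 stood at 99.7 CPM in luminal cells of Ctrl and 513 and 468 CPM in luminal and basal cells of cKO. Without barcodes past the threshold it stood at 27.4, 149 and 190 CPM, and in basal cells of cKO with at least 5000 UMIs at 3016 CPM. Thinned to 2000 UMIs, 45.2% of lymphatic cells held a Glycam1 UMI in place of 30.2%. The cause of the other changes was not tested. No paired analysis was possible because each group has 1 library, and no library could be left out.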
